A study of Mus musculus with 45 samples.

Results

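The enzymes and transporters that take glucose to pyruvate, and pyruvate on to lactate or into the mitochondrion, were followed as 32 named genes out of 23575 gene rows in long-read RNA of mouse cells on their way to pluripotency. The members were chosen by name and role, from glucose transporters to the mitochondrial pyruvate carrier, by a rule that uses no measured value, although the choice was made with earlier results of these data known, and all 32 had a row. The starting cells were neural progenitors of line O4G, made from embryonic stem cells with an Oct4-GFP reporter that descend from line R1. They carried doxycycline-inducible factor sets labelled OKMS-Luciferase-AS or OKS-Luciferase-AS, or none (wild type). What the luciferase element does is not stated in the labels, and it is in the names of both inducible genotypes but not of the wild type. Progenitors grew in N2B27 with EGF and FGF-2 and gave 4 libraries in each of 2 library types. These types were R9, direct cDNA of poly(A)-enriched RNA (22 libraries), and R10, PCR cDNA of total RNA (23 libraries). OKMS and OKS cells were then held in serum medium, a high-glucose DMEM with fetal bovine serum, LIF and doxycycline, with 1 library for each genotype and day (R9 days 2, 4, 6, 10, 14 and 20). The R10 libraries of these cells were of days 2, 6 and 18, and for OKMS also days 4 and 10. Wild-type progenitors kept 2 days in the same serum medium with doxycycline gave 1 R9 and 2 R10 libraries. Other OKMS and OKS cultures were moved to 2i-LIF, which is N2B27 with LIF, CHIR-99021 and PD0325901 (3 R9 libraries of days 14 and 20, moved at day 6, and 2 R10 libraries of day 18, for which the labels give no day of the move). Embryonic stem cells, also kept in 2i-LIF, were sequenced as 2 R9 libraries (O4G, R1) and 7 R10 libraries (O4G 2, R1 clone 3 2, R1 3, of which 1 has no n number in its label). Nothing in the labels says that libraries of a group came from separate cultures, so p-values measure only the spread between these libraries, which may be technical.

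Glucose enters cells through GLUT transporters, is trapped by hexokinase, committed by phosphofructokinase and split by aldolase, and the lower enzymes of glycolysis bring it to pyruvate. Pyruvate is reduced to lactate by lactate dehydrogenase and exported by monocarboxylate transporters, or it enters mitochondria through the MPC carrier and is oxidised by pyruvate dehydrogenase, which the PDK kinases switch off and the PDP phosphatases switch on. Most steps have several isozymes with different tissue patterns, and pluripotent cells are known for active glycolysis.

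Depth was 447990 to 1390424 reads in R9 and 566599 to 4236442 in R10. Of 6 stem cell markers all 6 were higher in stem cells in both library types (summed 11001 to 13551 CPM against 14.9 to 28.0 CPM in R10 progenitors), and the progenitor markers Nes, Fabp7, Pax6 and Olig2 were lower in both, while Sox1 was called higher in stem cells in R9 (3.72 and 10.4 CPM, with every progenitor library at 0 CPM; limma adjusted p 0.00136). Sox1 passed the R9 filter through the stem cell libraries alone, so the direction of its call was fixed in advance. Of the markers of other cell types, Tubb3 of neurons was higher in stem cells in both library types (neuron markers summed 37.4 to 133 CPM against 5.16 to 10.5 CPM in R10) and S100b of astrocytes and Thy1 of fibroblasts lower in both (astrocyte markers summed 0.471 to 5.60 CPM against 36.8 to 177 CPM in R10). Col1a1 of fibroblasts was higher and Rbfox3 of neurons lower in R10, Mki67 of dividing cells was lower in R9, and the part of these markers in the stem cell comparisons was not tested. The table gives reads by gene, and 12 members share at least 500 bases at 90% identity or more with other annotated genes. Levels are therefore uncertain for Gapdh, which has 46 such genes (40 of them pseudogenes) and a median of 29.9 CPM, for Pgk1 (2 such genes, median 6.92 CPM) and for Eno1 (6 such genes, median 31.7 CPM beside 703 CPM in the row of its copy Eno1b). Pfkp, Gpi1, Pgam1, Pkm, Ldhb and Pdhb each have 1 such gene with a row of its own, so their reads may be shared too. Their highest identities were 100%, 98.7%, 100%, 98.4%, 98.0% and 97.0%. For Tpi1 a row that joins it with Usp5 held a median of 447 CPM beside 151 CPM in its own row. A row antisense to Slc2a3 had a median of 96.0 CPM, and whether counting used strand is not given in the sources used here, so reads of this pair cannot be told apart. Adding such rows to their members left between 0 and 14 members called in each of the 8 comparisons, within 1 of the counts below.

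**Figure D1:**
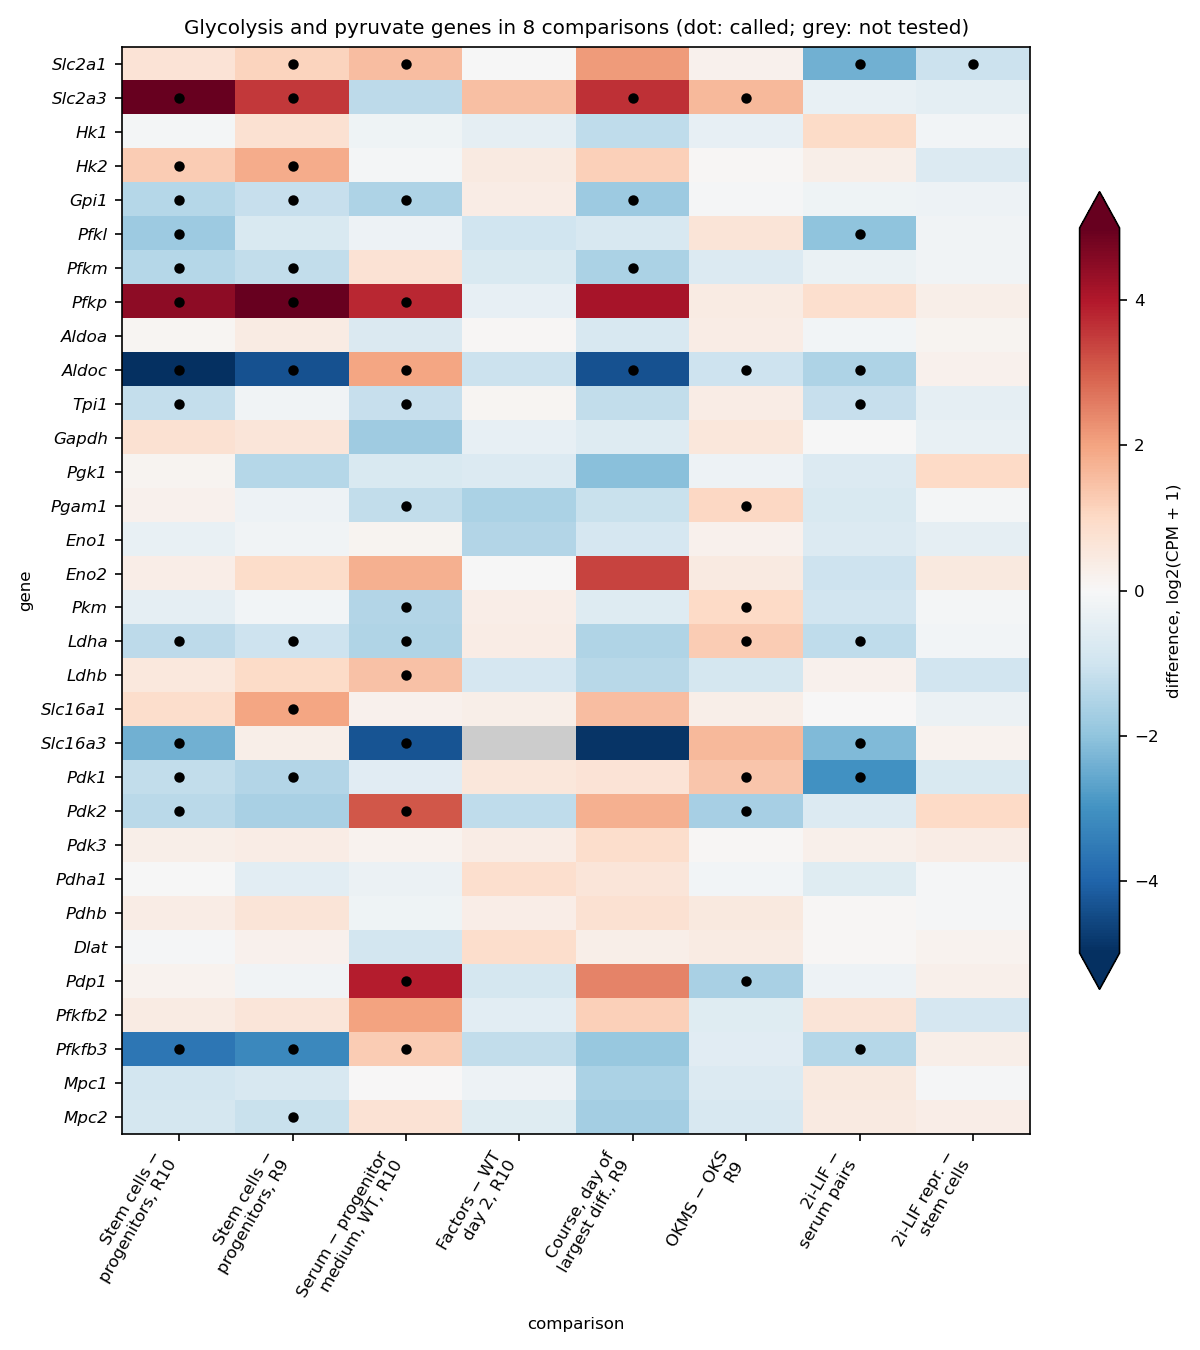
Differences in log2(CPM + 1) for the 32 genes (rows) in 8 comparisons (columns), red for higher and blue for lower in the group named first, with a dot where the difference was called and grey where a gene was not tested. Aldoc, Slc2a3 and Pfkp have the deepest colours in the stem cell columns, and the 2i-LIF against serum column holds 8 dots, all on lower values.

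Stem cells were compared with progenitors to show which of these genes separate the end states of reprogramming. All stem cells were in 2i-LIF and all progenitors in N2B27 with EGF and FGF-2, so cell state and medium cannot be told apart. In R10 (7 against 4 libraries) the GLUT3 gene Slc2a3 and the platelet-type phosphofructokinase gene Pfkp were much higher in stem cells, and the brain aldolase gene Aldoc was much lower, along with Pfkfb3, Slc16a3, Pfkl, Gpi1, Pfkm, Pdk2, Ldha, Pdk1 and Tpi1. A gene was called at a limma Benjamini-Hochberg adjusted p under 0.05 and a log2 difference of at least 1 in size. By this rule 3 of the 32 members were higher and 10 were lower, where 22.4% and 23.4% of all 15398 genes tested were. The median log2 difference was -0.04 for the members and 0.01 for all genes tested. In R9 (2 against 4 libraries) 5 members were higher and 7 lower, against 17.6% and 18.3% of 15728 genes. In bulk RNA, fewer cells of a type and less RNA per cell cannot be told apart.

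Among the glucose transporters, Slc2a3 was at 8.35, 15.2, 16.9 and 32.4 CPM in the R10 progenitors and at 322 to 974 CPM (median 582) in the R10 stem cells. The groups did not overlap, and the log2 difference was 4.99 ± 0.33 (SE; limma adjusted p 2.67e-09). In R9 the progenitors had 13.5, 17.4, 24.2 and 43.1 CPM and the stem cells 235 and 311 CPM (log2 difference 3.54 ± 0.44; limma adjusted p 0.00113). The antisense row of Slc2a3 differed alike, by 4.94 in R10 and 3.61 in R9 on the log2 scale. Slc2a1, the broadly expressed GLUT1, was called in R9 (24.1, 40.7, 48.9 and 56.5 CPM in progenitors, 73.9 and 109 in stem cells; 1.12 ± 0.36, limma adjusted p 0.0457), a call that ended without either stem cell library, without either wild-type library and without the OKS progenitors (limma adjusted p 0.0308 to 0.36, with 0.88 and 0.85 as the lowest log2 differences), and also with a pseudocount of 0.25 or no filter (limma adjusted p 0.0549 and 0.0638). In R10 the Slc2a1 difference was 0.69 ± 0.27, under the size limit, with overlapping groups. The Slc2a3 to Slc2a1 ratio within a library was 4.30 higher in stem cells on the log2 scale in R10 and 2.42 higher in R9.

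The hexokinase gene Hk2, whose product sits on the mitochondrial outer membrane in many growing cells, was higher in stem cells in both library types. Its R10 values were 88.2, 101, 114 and 223 CPM in progenitors and 166 to 720.4 CPM (median 250.01) in stem cells, with a log2 difference of 1.29 ± 0.34 (limma adjusted p 0.00322). The groups overlapped through 1 wild-type progenitor library, and the call ended against the wild-type progenitors alone (0.91; limma adjusted p 0.104) and with the O4G stem cells alone (0.99, under the size limit; limma adjusted p 0.0425). The highest stem cell value was in the R1 library without an n number. In R9, Hk2 was at 21.4, 27.1, 48.5 and 57.3 CPM in progenitors and 122 and 144 CPM in stem cells (1.86 ± 0.41; limma adjusted p 0.0118, and 0.157 or 0.124 with a single stem cell library left). Hk1 differed by -0.10 in R10 and 0.76 in R9 and was not called. Gpi1, which makes fructose 6-phosphate, was lower without overlap in both, by -1.44 ± 0.15 in R10 (limma adjusted p 4.88e-07) and -1.15 ± 0.15 in R9 (limma adjusted p 0.00143, with a difference of -0.998 and no call under median centring).

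Of the 3 phosphofructokinase genes, Pfkp went up in stem cells, while Pfkl and Pfkm went down. Pfkp was at 1.72, 2.22, 2.64 and 5.26 CPM in R10 progenitors and at 63.3 to 108 CPM (median 88.7) in stem cells, a log2 difference of 4.48 ± 0.23 (limma adjusted p 1.21e-10). In R9 it was at 1.69, 4.01, 4.84 and 9.42 CPM against 186 and 219 CPM (5.24 ± 0.52; limma adjusted p 0.000441). No progenitor library reached the lowest stem cell library of its type. The liver-type gene Pfkl was lower in R10, with 123, 164, 168 and 298 CPM in progenitors and 38.7 to 82.0 CPM (median 45.3) in stem cells (-1.81 ± 0.24; limma adjusted p 6.44e-06). In R9 its difference of -0.76 was under the size limit. The muscle-type gene Pfkm was lower in both, by -1.43 ± 0.17 (limma adjusted p 1.78e-06) and -1.24 ± 0.14 (limma adjusted p 0.000651). Relative to Pfkl, Pfkp was 6.30 higher in stem cells in R10 and 6.00 higher in R9, as a difference of log2 ratios. Pfkfb3, a maker of the phosphofructokinase activator fructose 2,6-bisphosphate, fell from 39.1, 40.7, 42.2 and 46.2 CPM in R10 progenitors to 1.55 to 4.06 CPM (median 2.24) in stem cells (-3.63 ± 0.23; limma adjusted p 1.73e-09). In R9 the Pfkfb3 difference was -3.23 ± 0.42 (limma adjusted p 0.0013). Pfkfb2 was not called in either (0.40 and 0.60).

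Aldoc had the largest difference of the 32 genes in R10. The R10 progenitors had 1153, 1270, 1348 and 1401 CPM and the stem cells 18.7 to 42.6 CPM (median 30.9), a log2 difference of -5.36 ± 0.18 (limma adjusted p 1.12e-12). In R9 the values were 813, 1087, 1322 and 1338 CPM against 45.4 and 64.2 CPM (-4.35 ± 0.25; limma adjusted p 7.49e-05). The groups lay far apart in both library types. The general aldolase gene Aldoa did not pass in either, with differences of 0.11 and 0.40, so the Aldoa to Aldoc ratio was 5.47 and 4.75 higher in stem cells on the log2 scale. In lower glycolysis only Tpi1 was called, and only in R10 (-1.19 ± 0.22; limma adjusted p 0.000192; -0.19 in R9). Its R10 call ended under median centring, where the difference was -0.98. Gapdh, Pgk1, Pgam1, Eno1, Eno2 and Pkm were not called, with R10 differences from -0.44 (Pkm) to 0.77 (Gapdh).

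Of the lactate genes, Ldha fell in stem cells, from 2032, 2489, 2501 and 2681 CPM in R10 progenitors to 481 to 1625 CPM (median 970) (-1.30 ± 0.24; limma adjusted p 0.000174). The lowest Ldha value was in the R1 library without an n number, and with the O4G stem cells alone the difference was -0.69. In R9 it fell by 1.02 on the log2 scale (limma adjusted p 0.00433), close to the size limit. That call ended without the O4G library (-0.88; limma adjusted p 0.0877), and the difference was under the size limit with quantile normalization (-0.97), median centring (-0.87), edgeR (-0.93) and DESeq2 (-0.92) and without the OKMS or the OKS progenitors (-0.94 and -0.97). Ldhb, the subunit typical of oxidative tissue, was 0.51 higher in R10 and 0.96 higher in R9, under the size limit both times, and the Ldha to Ldhb ratio was lower by -1.81 and -1.98. The lactate exporter gene Slc16a3 (MCT4) was at 18.01, 31.0, 33.9 and 46.7 CPM in R10 progenitors and 1.55 to 10.4 CPM (median 5.58) in stem cells (-2.39 ± 0.38; limma adjusted p 4.55e-05). In R9 it was at 12.6, 20.1, 24.2 and 33.7 CPM in progenitors and 17.0 and 41.0 CPM in stem cells, with overlap and a difference of 0.30. That difference between library types passed its own test (2.69; limma interaction, adjusted p 0.0248). Slc16a1 (MCT1) was 1.98 ± 0.28 higher in R9 (limma adjusted p 0.00179) and 0.87 higher in R10, under the size limit but without overlap.

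At the entry to mitochondrial oxidation, the kinase gene Pdk1 was lower in both types (-1.24 ± 0.48, limma adjusted p 0.0302 in R10; -1.48 ± 0.39, limma adjusted p 0.0219 in R9). Its R10 stem cell values ran from 3.87 to 31.9 CPM and overlapped the progenitors (24.2, 26.1, 31.0 and 45.7 CPM). The R10 call ended under quantile normalization, median centring, edgeR and DESeq2 and without any of 4 libraries (limma adjusted p of 0.0539 or more), and with the O4G stem cells alone the difference was -0.31. Without the O4G library the R9 difference was -0.91 (limma adjusted p 0.167). Pdk2 was lower in R10 (-1.36 ± 0.24; limma adjusted p 0.000107) and not called in R9 (-1.64; limma adjusted p 0.0954). The carrier genes Mpc1 and Mpc2 were lower without overlap in both, by -0.91 and -0.88 in R10, and Mpc2 passed the size limit in R9 (-1.11 ± 0.16; limma adjusted p 0.00182; -0.96 under median centring). The dehydrogenase subunit genes Pdha1, Pdhb and Dlat, the kinase gene Pdk3 and the phosphatase gene Pdp1 were not called in either type.

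Of 22 tested genes on a list of 35 further glycolysis and pyruvate genes, 8 were higher in R10 stem cells and 2 lower, beside 22.4% and 23.4% of all genes. The higher ones were Eno3, Slc2a8, Pfkfb1, Me2, Tigar, a fructose 2,6-bisphosphatase (89.9 ± 10.3 CPM against 7.44 ± 2.41, SD), the muscle mutase Pgam2 and the testis lactate dehydrogenase Ldhc, both at 0 CPM in every R10 progenitor library, and Fbp2, a gluconeogenic phosphatase. Pgam2 and Ldhc passed the filter through the stem cell libraries alone, so the direction of their calls was fixed in advance. The lower ones were Slc2a10 and Pck2. In R9, of 22 tested, Pgam2, Eno3, Ldhc, Pfkfb1, Pdp2, Tigar, Fbp2 and Me2 were higher and Slc2a10 was lower, beside 17.6% and 18.3%. Of 11 tested hypoxia-inducible genes outside glycolysis, Kdm3a was higher and Vegfa, Bnip3, Egln1, Egln3, P4ha1 and Ddit4 were lower. In R9, of 12 tested, 0 were higher and Bnip3, Egln1, Adm, P4ha1 and P4ha2 were lower. The lists were chosen with earlier results of these data known. Mitochondrial reads moved with the groups in R10, at 1.56% to 2.35% in the numbered stem cell and day 18 libraries against 0.124% to 0.319% in the wild-type libraries and the R1 library without an n number. The other OKMS and OKS libraries lay between, at 0.73% to 1.64%, with the progenitors of these genotypes at 1.08% and 1.12% and their day 2 libraries at 1.51% and 1.64%. The part of these reads in the differences was not tested.

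**Figure D2:**
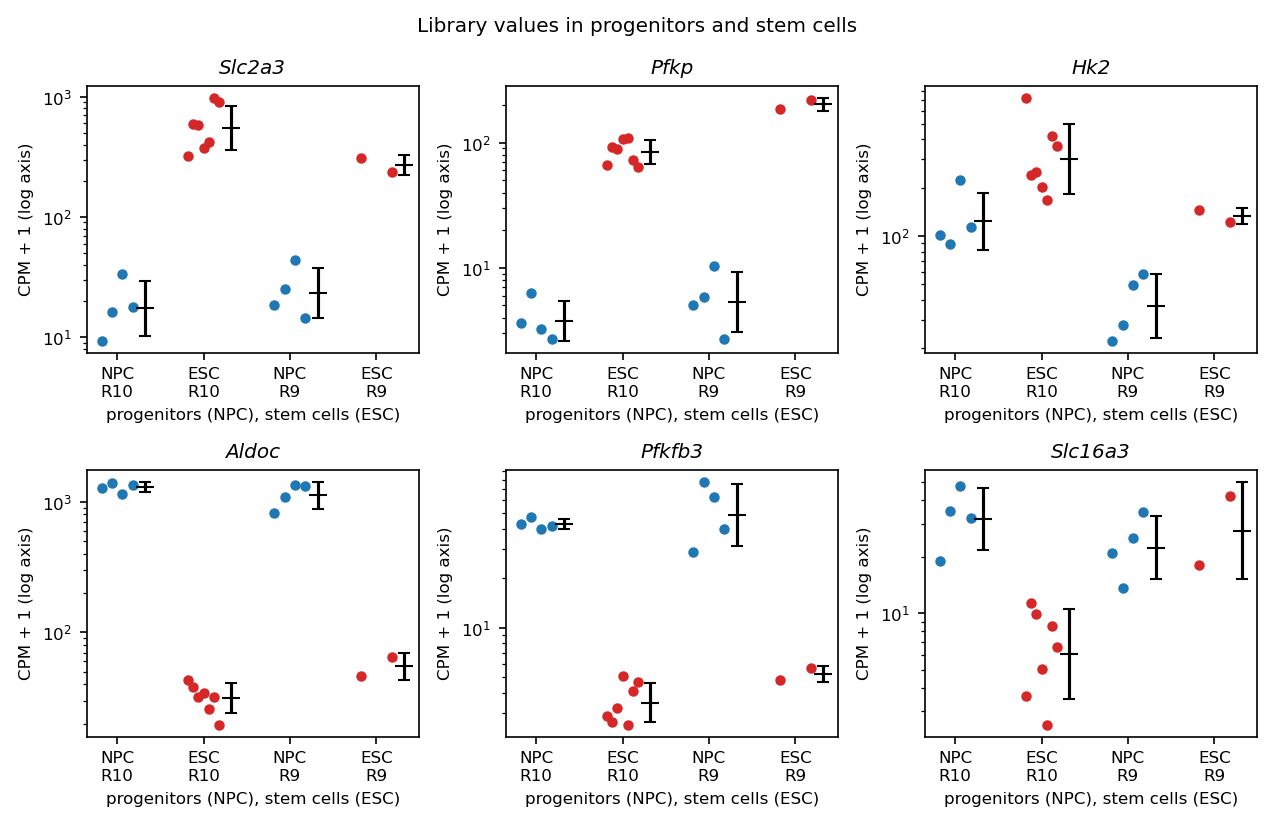
Library values (points, CPM + 1 on a log axis) of 6 genes in progenitors (blue, NPC) and stem cells (red, ESC) of each library type; the black bar is the mean of the log values ± SD. Slc2a3 and Pfkp points of stem cells lie above all progenitor points of their type and Aldoc and Pfkfb3 points below, while Slc16a3 separates in R10 only.

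The change of medium without factors was read from wild-type progenitors after 2 days in serum medium with doxycycline, against wild-type progenitors in N2B27 with EGF and FGF-2 (R10, 2 against 2 libraries, the latter also part of the progenitor group above). Pdp1 and Pdk2, which regulate pyruvate dehydrogenase, and Pfkp rose most. Of the 32 members 7 were higher and 6 lower, where 14.9% and 11.9% of 14669 genes were, and the median log2 difference was -0.15 for the members and 0.12 for all genes. The phosphatase gene Pdp1 was at 39.9 and 48.9 CPM in serum medium and 1.91 and 2.01 CPM before (3.93 ± 0.35; limma adjusted p 0.00248). Its opponent Pdk2 was at 133 and 141 CPM against 11.5 and 19.4 CPM (3.12 ± 0.31; limma adjusted p 0.00294). Both genes, with opposite actions on the enzyme, were thus several-fold higher, with no overlap. Pfkp was at 36.6 and 42.7 CPM against 1.72 and 2.22 CPM (3.77 ± 0.36; limma adjusted p 0.0027), while Slc2a3 was at 7.05 and 10.9 CPM against 16.9 and 32.4 CPM (-1.32; limma adjusted p 0.0724).

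Aldoc rose in serum medium, to 4180 and 5867 CPM from 1153 and 1348 CPM (1.99 ± 0.33; limma adjusted p 0.0108). Slc2a1 (1.53), Ldhb (1.45) and Pfkfb3 (1.28) also rose, each without overlap. Slc16a3 fell to 0.329 and 1.96 CPM from 31.0 and 46.7 CPM (-4.30 ± 0.52; limma adjusted p 0.00486). The other genes that fell were Gpi1 (-1.54), Ldha (-1.50), Pkm (-1.46), Pgam1 (-1.22) and Tpi1 (-1.17). The Pgam1 call ended with no filter, quantile normalization and edgeR (adjusted p 0.0538, 0.0618 and 0.0647), the Tpi1 call with edgeR (0.06) and the Aldoc call under median centring (limma adjusted p 0.0602). Ldha was at 836 and 1001 CPM against 2501 and 2681 CPM and Pkm at 691 and 696 CPM against 1606 and 2277 CPM, so the Ldha to Ldhb ratio was 2.95 lower (a log2 difference of -2.95). Of 19 other genes of the pathway, Eno3 and the anaplerotic Pcx were higher and Pdp2, Tigar and Adpgk lower, counts near the 14.9% and 11.9% of all genes.

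These calls rest on 2 libraries a group. Leaving out a library leaves 1 against 2, and 3 of the 4 such fits called 0 genes of all those tested, so they say nothing of the members. The fourth, without serum replicate 3, called 1134 of 16177 genes and 0 members. In R9, with 1 serum library against 2, the spread came from the progenitor libraries alone. The calls of members did not hold there either, although genes outside the members were called. Pdp1 and Pdk2 differed by 4.19 and 3.30 there, but Pfkfb3 by 0.35 and Pkm by -0.81. Cell markers moved with this comparison: Mki67, Top2a and Ccnb1 were lower (summed 13.5 to 24.7 CPM against 926 to 1048 CPM), and of 3 astrocyte markers Gfap and Aqp4 were higher (summed 1186 to 3053 CPM against 36.8 to 91.5 CPM). The progenitor markers Nes and Olig2 and the stem cell marker Esrrb were lower, and Tubb3 of neurons (summed neuron markers 17.1 to 23.5 CPM against 5.16 to 10.5 CPM) and Col1a1 of fibroblasts (10.6 to 32.3 CPM against 1.27 to 3.44 CPM) were higher. Of 12 tested hypoxia-inducible genes, Egln3 and Hif1a were higher and Vegfa, Bnip3, Ankrd37 and Egln1 lower, beside 14.9% and 11.9% of all genes. The part of the markers in the result was not tested. The basal medium, serum, LIF, glucose, doxycycline and the loss of EGF and FGF-2 cannot be told apart.

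At day 2, OKMS and OKS cells were set against wild-type cells in the same medium (R10, 2 against 2, with OKMS and OKS as 1 group and the serum libraries of the last comparison as controls). The groups also differ by the luciferase element and in mitochondrial reads (1.51% and 1.64% against 0.319% and 0.165%). The factors and these other differences cannot be told apart. No member of 31 tested was called higher, where 0.715% of 15382 genes were, and none lower, where 0.026% were. At an unadjusted p under 0.05 there were 6 members, 1 higher and 5 lower, where 10.9% and 4.34% of all genes were. The tools edgeR and DESeq2 also called 0, and the lowest limma adjusted p was 0.152. Slc2a3 was at 22.4 and 32.4 CPM with factors and 7.05 and 10.9 CPM without (1.52 ± 0.52), and Pgam1 was at 19.0 and 32.4 CPM against 58.7 and 102 CPM (-1.60 ± 0.46). Both were without overlap. Slc16a3 was under the filter and was not tested. Pou5f1, itself a gene of the factor set, and Mki67 and Top2a were higher with factors (dividing-cell markers summed 121 to 533 CPM against 13.5 to 24.7 CPM), and their part was not tested.

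Along the R9 time course, the 12 OKMS and OKS libraries of days 2 to 20 were compared with their progenitors (day 0) by limma's moderated F test with genotype as a term. Each day had 1 library of each genotype, so the p-values take OKMS and OKS as replicates of a day. Their spread is the disagreement between the genotypes by day. Day 0 was in progenitor medium and all later days in serum medium with doxycycline, so medium and factors cannot be told apart. A gene was called where the F test passed and the largest difference of a day was at least 1 in size. Slc2a3 rose and Aldoc, Gpi1 and Pfkm fell, each with its largest difference at day 20. These were 1 member higher and 3 lower, where 5.48% and 5.21% of 19337 genes were. The members' median of the largest differences was -0.72, and that of all genes 0.63.

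Slc2a3 rose at different days in the genotypes. From day 0 to day 20 OKMS cells gave 43.1, 21.5, 41.7, 134, 568.3, 363 and 228 CPM, and OKS cells gave 13.5, 12.0, 24.8, 24.1, 40.2, 48.0 and 430 CPM (largest difference 3.63; limma adjusted p 0.0297). OKMS cells thus passed 100 CPM at day 6 and OKS cells at day 20. In R10, with 1 library a point and no test, OKMS cells had 8.35, 32.4, 42.6, 227, 377 and 745 CPM at days 0, 2, 4, 6, 10 and 18, and OKS cells 15.2, 22.4, 35.0 and 218 CPM at days 0, 2, 6 and 18.

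Aldoc in OKMS cells ran 1338, 1312, 507, 830, 715, 374 and 28.3 CPM over the R9 days. In OKS cells it ran 1322, 2658, 1631, 1256, 1533, 281 and 142 CPM (largest difference -4.36; limma adjusted p 0.00151). The OKS cells stayed near or above day 0 until day 10 and were low by day 14. Gpi1 was below its day 0 values (183 and 211 CPM) in all 12 later libraries, at 44.3 to 146 CPM (-1.81; limma adjusted p 0.0357). Pfkm ended at 27.1 and 31.6 CPM from 87.5 and 91.1 CPM (-1.58; limma adjusted p 0.0295). Pfkp, at 1.69 and 9.42 CPM at day 0, was above that in all 12 later libraries (20.1 to 154 CPM), but its limma adjusted p was 0.102. R10 had 1 library a point and no test. There Gpi1 ran 174, 91.7, 104, 105, 151 and 169 CPM in OKMS at days 0, 2, 4, 6, 10 and 18, ending near day 0. In OKS it ran 200, 85.8, 71.7 and 46.1 CPM at days 0, 2, 6 and 18. Pfkm ran 69.0, 61.7, 42.6, 46.8, 83.2 and 44.5 CPM in OKMS on these days. In OKS it ran 71.9, 79.5, 86.2 and 35.9 CPM. Aldoc was at 187 and 127 CPM at day 18, from 1270 and 1401 CPM.

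All members but Pfkp, Slc16a1 and Pfkfb3 had at least 1 course library outside the range of the R9 end states. The share over all genes was not computed, so this cannot be read as particular to these members. Eno2, the neuronal enolase gene, lay above all R9 progenitor and stem cell libraries in 12 of 12 time course libraries (3.39 to 19.7 CPM against 0 to 1.89 CPM). Pdha1 did so in 10 of 12 (168 to 333 CPM over the course), Slc2a1 and Pdp1 in 8 of 12 and Pdk2 in 7 of 12. Aldoa lay below both end states in 9 of 12 and above both in 3. Slc16a3 likewise lay below in 9 and above in 3, with values from 0 to 126 CPM. Pgam1 lay below both in 6 and above both in 4, and Tpi1 and Eno1 below in 7 and above in 2. The R9 wild-type library in serum medium, without factors, also lay above both end states for Eno2, Slc2a1, Pdp1 and Pdk2. Its values were 5.66, 181, 34.0 and 97.6 CPM. It lay below both for Aldoa (1088 CPM) and Slc16a3 (0 CPM) and within the range for Pdha1 (164 CPM). For Pgam1, Tpi1 and Eno1 it also lay below both (77.8, 76.4 and 19.8 CPM). The part of the medium was not tested. Of 25 other genes of the pathway, Eno3 and Ldhc were higher and Slc2a10 and Me1 lower, counts near the 5.48% and 5.21% of all genes.

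The calls of the course rest on few libraries. The Slc2a3 call ended without any single library (limma adjusted p 0.0554 to 0.232) and without day 2 or day 20 (0.0819 and 0.0541). Gpi1 and Pfkm likewise lost their calls without most libraries, while Aldoc lost its call without OKMS day 20 or OKMS day 2 (limma adjusted p 0.0603 and 0.0513) or without day 20 in both genotypes (0.0716). With quantile normalization Slc2a3, Gpi1 and Pfkm were not called (limma adjusted p 0.0606, 0.0582 and 0.0679). Stem cell and progenitor markers moved along the course too, from 10.8 and 30.4 CPM to as much as 9440 CPM in sum for the former. Of the markers of other cell types, Gfap of astrocytes, Tubb3 of neurons and Col1a1 of fibroblasts were called higher and S100b of astrocytes lower. In sum the astrocyte markers were at 0 to 286 CPM (117 and 128 CPM in progenitors), the neuron markers at 6.62 to 126 CPM (0 and 1.35 CPM) and the fibroblast markers at 13.6 to 116 CPM (14.8 and 23.6 CPM). The part of all these markers in the result was not tested. Of 12 tested hypoxia-inducible genes, Ndrg1 and Hif1a were higher and 0 lower, beside 5.48% and 5.21% of all genes.

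**Figure D3:**
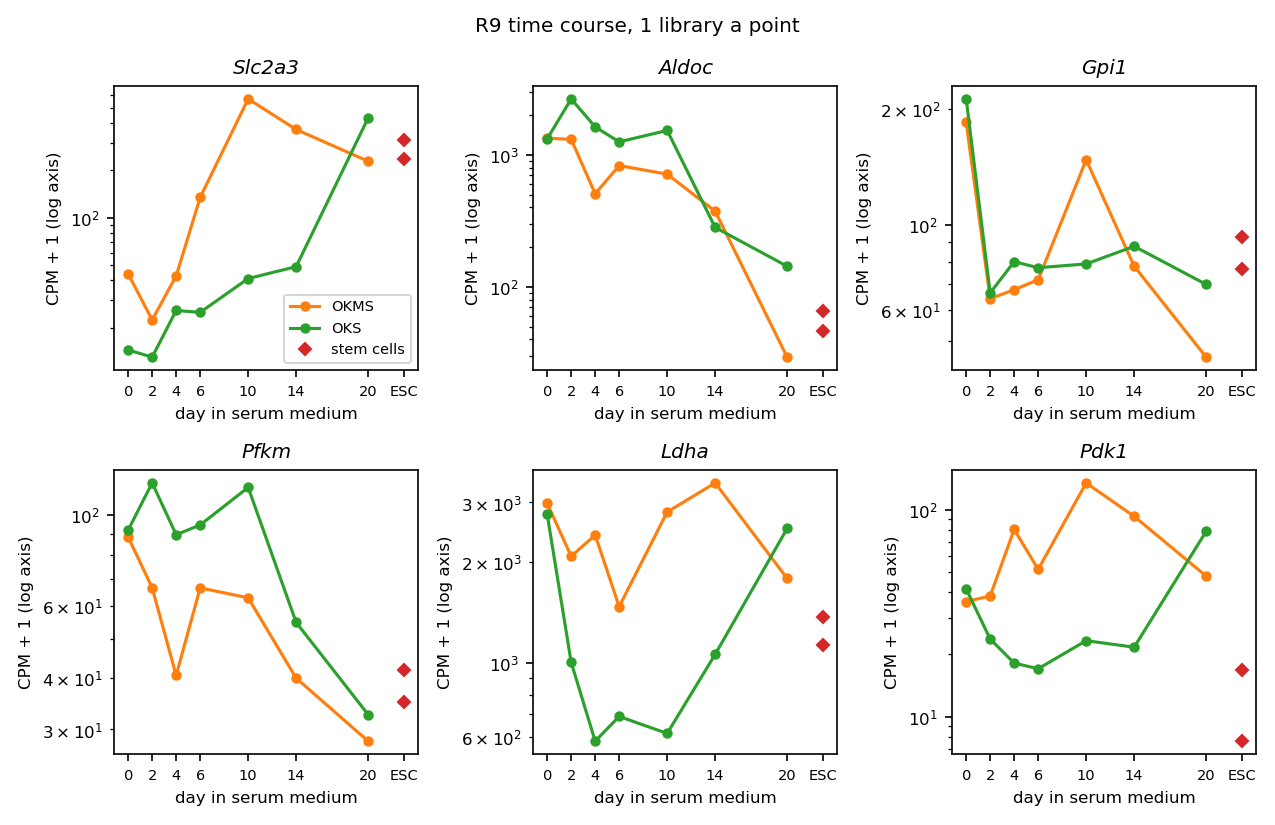
CPM + 1 (log axis) by day in serum medium for 6 genes in R9, 1 library a point, with OKMS and OKS as separate lines and the 2 stem cell libraries as diamonds at the right. Slc2a3 in OKMS is above 100 CPM from day 6 and in OKS at day 20 only, and Aldoc is lowest at day 20 in both lines.

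Myc is the factor that OKMS has and OKS lacks, by the names of the sets. Each day had 1 library of each genotype, so the p-values take the days as replicates. Myc and other differences between the OKMS and OKS cells cannot be told apart. With day as a block (6 R9 days, the serum libraries of the course again), OKMS cells had more mRNA of Slc2a3, Pdk1, Ldha, Pgam1 and Pkm and less of Pdk2, Pdp1 and Aldoc. These were 5 members higher and 3 lower, where 6.94% and 11% of 14257 genes were, with a median difference of 0.22 for the members and -0.11 for all genes. Ldha was at 2073, 2398, 1467, 2809, 3430 and 1779 CPM in OKMS cells at days 2, 4, 6, 10, 14 and 20 and at 1000.1, 582, 689, 613 (day 10), 1056 and 2509 CPM in OKS cells (1.26 ± 0.29; limma adjusted p 0.00763). OKMS cells were higher on 5 of 6 days and lower at day 20.

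The same held for Slc2a3 (1.62 ± 0.46; limma adjusted p 0.0197), Pdk1 (1.39 ± 0.36; limma adjusted p 0.0122), Pgam1 (1.04 ± 0.27; limma adjusted p 0.0122) and Pkm (1.01 ± 0.28; limma adjusted p 0.0166), each higher on 5 of 6 days with day 20 as the exception. Pkm was at 1117, 1200, 1314, 2563, 2656 and 1454 CPM in OKMS cells and 592, 563, 546, 576, 1108 and 2269 CPM in OKS cells. Until day 10 the OKS values of Pkm stayed within a narrow band, below each OKMS value.

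Pdk2 was lower in OKMS cells on 6 of 6 days, with 48.6, 14.6, 10.9, 12.7, 24.3 and 3.69 CPM against 72.2, 80.1, 75.0, 82.5, 24.8 and 13.7 CPM (-1.65 ± 0.35; limma adjusted p 0.00527). Pdp1 was lower on 6 of 6 days as well, with 15.8, 2.09, 4.09, 7.03, 5.28 and 3.69 CPM against 24.1, 21.0, 36.1, 40.2, 10.8 and 4.31 CPM (-1.62 ± 0.43; limma adjusted p 0.0149). Aldoc was lower on 5 of 6 days (-1.05 ± 0.27; limma adjusted p 0.0129). The Pdk1 to Pdk2 ratio was 3.04 higher in OKMS cells on the log2 scale. Ldhb (-0.87), Mpc2 (-0.80), Pfkm (-0.68) and Pdhb (0.47) passed the adjusted p but not the size limit, Pfkm lower and Pdhb higher on 6 of 6 days.

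Several of these calls ended when a day was left out, where calls over all genes fell too. Without day 10, 14, 4 or 6 there were 1952, 2199, 1777 and 1682 genes called, against 2563. Without day 10, 14 or 6 Slc2a3 was no longer called (limma adjusted p 0.0666, 0.0635 and 0.0726), Pdk1 was not called without day 4 (0.0502), Pdp1 not without day 4 or 6 (0.0586 and 0.0658), and Pgam1, Pkm and Aldoc each fell under a limit without some days, while Ldha and Pdk2 kept theirs. Aldoc was also under the size limit under median centring (-0.89) and with edgeR (-0.95), and Pkm with quantile normalization (0.95). Days 2 to 6 alone gave 5 members higher and 4 lower, where 2646 of 14639 genes were called. Days 10 to 20 alone called 124 of 15107 genes and the R10 pairs alone called 0 of 15115, so that the 0 members called in each say nothing particular to them. Of the markers, Nanog, Zfp42 and Dppa5a, and Top2a and Ccnb1 of dividing cells, were higher in OKMS cells and all 3 astrocyte markers lower (summed 0 to 159 CPM against 2.16 to 286 CPM). Tubb3 of neurons was also higher (neuron markers summed 12.7 to 126 CPM against 6.62 to 56.8 CPM) and the progenitor markers Fabp7 and Olig2 lower, and the part of all these was not tested. Of 12 tested hypoxia-inducible genes, Ankrd37 was higher and Adm and Ndrg1 were lower, beside 6.94% and 11% of all genes. Of 21 other genes of the pathway, Pfkfb1, Tigar and Me2 were higher and 0 lower.

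The medium of late cells was compared in 5 pairs of the same genotype, day and library type. In 2i-LIF against serum medium Pdk1, Slc2a1, Slc16a3, Pfkl, Aldoc, Pfkfb3, Ldha and Tpi1 were lower. These were 8 of 32 members, where 6.33% of 14917 genes were lower, and 0 members were higher, where 5.96% of genes were. The median log2 difference was -0.36 for the members and -0.03 for all genes. The 2i-LIF medium lacks serum and doxycycline, the inducer of the factors, holds CHIR-99021 and PD0325901 and rests on another basal medium. The parts of these cannot be told apart.

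In the order OKMS day 14, OKMS day 20, OKS day 20 (R9), OKMS day 18 and OKS day 18 (R10), Slc2a1 was at 303, 128, 405, 177 and 131 CPM in serum medium. In 2i-LIF it was at 50.1, 51.6, 30.3, 26.4 and 37.5 CPM (-2.41 ± 0.26; limma adjusted p 8.63e-06). All 5 pairs fell, and the media did not overlap. Slc2a3 was lower in 3 of 5 pairs (-0.37; limma adjusted p 0.298), so the Slc2a3 to Slc2a1 ratio was 2.04 higher in 2i-LIF on the log2 scale.

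In the same order Pdk1 was at 91.8, 46.8, 77.6, 31.2 and 47.4 CPM in serum medium and 3.66, 7.52, 4.66, 15.9 and 3.13 CPM in 2i-LIF (-3.02 ± 0.41; limma adjusted p 7.24e-05). Pfkl was at 413, 132, 355, 289 and 207 CPM against 75.7, 95.7, 61.7, 56.4 and 40.7 CPM (-2.01 ± 0.25; limma adjusted p 3.06e-05). Ldha was at 3430, 1779, 2509, 2252 and 2281 CPM against 951, 1231, 914, 1139 and 835 CPM (-1.25 ± 0.18; limma adjusted p 0.000105). All 3 were lower in 5 of 5 pairs without overlap, and the smallest falls were in the OKMS day 20 pair for Pfkl and Ldha and in the OKMS day 18 pair for Pdk1.

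The remaining calls were Slc16a3 (-2.22 ± 0.55; limma adjusted p 0.01), Aldoc (-1.55 ± 0.36; limma adjusted p 0.00658), Pfkfb3 (-1.43 ± 0.47; limma adjusted p 0.0467) and Tpi1 (-1.16 ± 0.32; limma adjusted p 0.0218). Each was lower in 4 of 5 pairs, and the pair that went up was OKMS day 20 each time. Pkm was lower in 5 of 5 pairs without overlap but just under the size limit (-0.96 ± 0.16; limma adjusted p 0.000568). Pgam1 and Pdha1 were also lower in 5 of 5 pairs and under the size limit (-0.76 and -0.60). Hk1 (0.95) and Pfkp (0.84) were higher in 4 of 5 pairs, with limma adjusted p of 0.0302 and 0.0136, also under the size limit. Without a pair, Slc2a1, Pfkl, Pdk1 and Ldha were called each time. Pfkfb3 and Tpi1 lost their calls without any of 4 pairs, Slc16a3 without any of 3 (limma adjusted p 0.0575 to 0.0781) and Aldoc without OKMS day 14 or OKS day 20 (0.0671 and 0.0574). Tpi1, Slc16a3 and Pfkfb3 were not called with DESeq2 (adjusted p 0.104, 0.0578 and 0.119), nor Pfkfb3 with a pseudocount of 0.25 or no filter (limma adjusted p 0.068 and 0.0689). In the R10 pairs alone 3 members were called, all lower, where 174 of 15428 genes were called. In the R9 pairs alone 1 member was higher and 4 were lower, where 1167 of 15463 genes were called.

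Of 23 other genes of the pathway, Pdp2, Tigar, Pck2 and the fructose bisphosphatases Fbp1 and Fbp2 were higher in 2i-LIF and Eno3 was lower, beside 5.96% and 6.33% of all genes. Fbp2 was at 111 ± 40.7 CPM in 2i-LIF and 12.7 ± 16.2 CPM in serum medium (SD, n = 5; 3.61 on the log2 scale, limma adjusted p 2.51e-05). Of 12 hypoxia-inducible genes outside glycolysis, Bnip3, Adm, Ndrg1 and P4ha2 were lower and Kdm3a higher. Nanog, Zfp42, Esrrb and Tdh of the 6 stem cell markers were higher in 2i-LIF (summed 9800.0 to 15721 CPM against 5676 to 15642 CPM), Pax6 of progenitors and Gata6 of endoderm were lower, and their part was not tested.

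**Figure D4:**
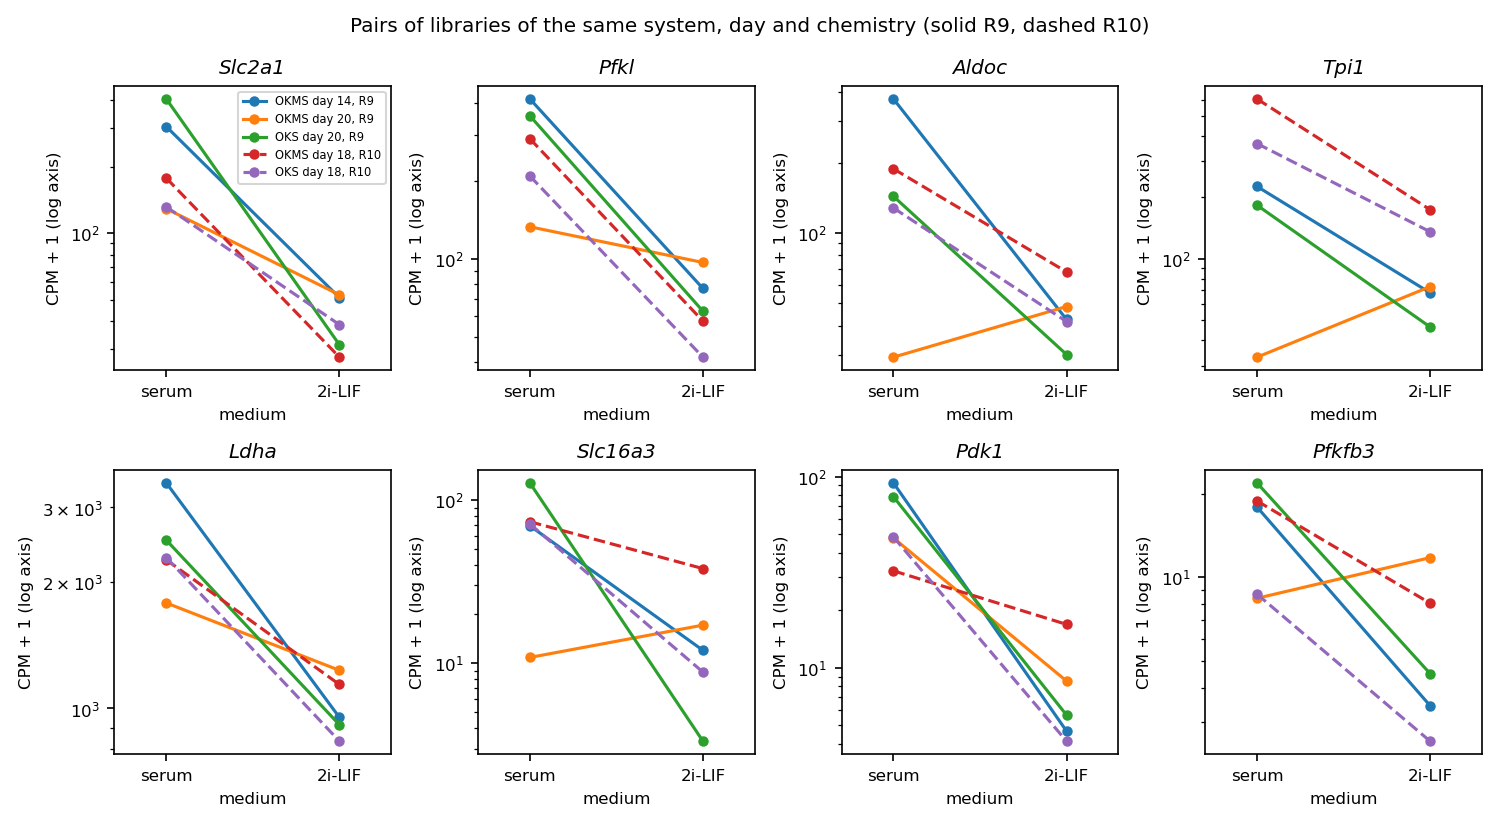
CPM + 1 (log axis) in serum medium and 2i-LIF for the 8 genes called lower, 1 line for each of 5 pairs (solid R9, dashed R10). Lines of Slc2a1, Pdk1, Pfkl and Ldha fall in all 5 pairs.

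The 250 bases before the annotated start were searched for the core of the hypoxia response element, ACGTG or GCGTG, and for the E-box CACGTG, which HIF and Myc proteins are known to bind. Both strands were read, and ACGTG is contained in CACGTG. RefSeq starts on GRCm38.p6 were at hand for 30 of the 32 members, and not used here for Slc2a3 and Pdp1. ACGTG was in a window of 15 of the 30 genes (18.5% of 27025 genes with a window), GCGTG in 20 (30.9%) and CACGTG in 6 (6.86%). A gene was counted if any of its windows matched. The 30 members had 47 windows and the 27025 genes 32851, so members had more windows per gene and more chances of a match. Member windows were richer in G and C, with a median of 61.6% against 52.4% for all windows. Of the 8 genes that fell in 2i-LIF, 4 held ACGTG, 6 GCGTG and 2 CACGTG, and of the other 22 members 11, 14 and 4 did. A match describes letters and not a bound site. The windows of 3 genes that fell are shown 5′ to 3′ along the plus strand, with matches of either strand in capitals, to let the spacing of the matches be seen. They lie at chr7:46845554-46845803 (Ldha), chr11:120948817-120949066 (Slc16a3) and chr2:71872974-71873223 (Pdk1).
Ldha: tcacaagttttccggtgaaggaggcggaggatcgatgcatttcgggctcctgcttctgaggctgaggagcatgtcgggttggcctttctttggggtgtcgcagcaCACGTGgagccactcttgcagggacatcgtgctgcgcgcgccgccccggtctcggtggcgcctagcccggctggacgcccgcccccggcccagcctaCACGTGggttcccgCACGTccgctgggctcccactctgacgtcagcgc
Slc16a3: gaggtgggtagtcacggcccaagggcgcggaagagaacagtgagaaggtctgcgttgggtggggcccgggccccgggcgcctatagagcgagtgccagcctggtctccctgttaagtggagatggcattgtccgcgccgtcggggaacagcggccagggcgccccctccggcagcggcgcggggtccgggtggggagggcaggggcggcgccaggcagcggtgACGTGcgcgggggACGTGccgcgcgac
Pdk1: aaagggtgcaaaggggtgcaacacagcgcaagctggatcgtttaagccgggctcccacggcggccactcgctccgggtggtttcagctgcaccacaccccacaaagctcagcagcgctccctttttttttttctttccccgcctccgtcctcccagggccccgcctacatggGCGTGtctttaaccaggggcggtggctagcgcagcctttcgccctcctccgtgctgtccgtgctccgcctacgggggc
The Ldha window held 5 ACGTG matches over both strands, since each of its 2 CACGTG sites reads as ACGTG on either strand, and the Slc16a3 window held 2. The Pdk1 window held 1 GCGTG match. Ldha and Pdk1 each have a second annotated start, and the window with more matches is shown. The other Ldha window held 1 GCGTG match, and the other Pdk1 window held 0 matches.

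Reprogrammed cells in 2i-LIF were set against stem cells in 2i-LIF (5 against 9 libraries, library type as a term; the reprogrammed libraries are those of the medium pairs). Of the 32 members 1 was lower and 0 were higher, where 1.47% and 1.74% of 14932 genes were. Slc2a1 was at 26.4, 30.3, 37.5, 50.1 and 51.6 CPM in reprogrammed cells and at 40.3 to 111 CPM (median 74.8) in stem cells (-1.09 ± 0.26; limma adjusted p 0.0203). The groups overlapped, and the call ended with edgeR and without OKS day 20, OKMS day 18, OKS day 18 or the R9 library of R1 (log2 differences of -0.98 to -1.18; limma adjusted p 0.04 to 0.0752). Ldhb was lower by -0.98 (limma adjusted p 0.0175), just under the size limit. Among the genes that set stem cells apart from progenitors, Slc2a3 (-0.48), Pfkp (0.28) and Aldoc (0.22) were not called. Of 23 other genes of the pathway Fbp1 and Fbp2 were higher in reprogrammed cells, with Fbp2 at 111 ± 40.7 against 15.2 ± 13.5 CPM (SD).

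Pkm makes 2 forms of pyruvate kinase by using either of a pair of exons that exclude each other, exon 9 for PKM1, the form of muscle and mature neurons, and exon 10 for PKM2, the form of embryonic and dividing cells. The deposited transcript annotation places exon 9 at chr9:59675029-59675195 and exon 10 at chr9:59675568-59675734 on the plus strand, on GRCm38 coordinates. Both are internal exons of 167 bases, and 103 bases (61.7%) are identical in an alignment without gaps. They are shown with the bases that differ in capitals, since only these letters tell the exons apart.
Pkm exon 9: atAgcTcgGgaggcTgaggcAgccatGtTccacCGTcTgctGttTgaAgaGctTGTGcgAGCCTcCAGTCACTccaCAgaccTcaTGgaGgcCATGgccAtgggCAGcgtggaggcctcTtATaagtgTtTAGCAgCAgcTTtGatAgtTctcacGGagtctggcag
Pkm exon 10: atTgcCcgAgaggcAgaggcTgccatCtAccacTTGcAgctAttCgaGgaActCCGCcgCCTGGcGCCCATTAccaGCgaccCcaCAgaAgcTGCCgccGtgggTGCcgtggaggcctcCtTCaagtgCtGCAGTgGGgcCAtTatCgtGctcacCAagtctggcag
Of 196 deposited Pkm transcripts, 103 held exon 10 alone (a mean of 166 TPM in sum over the libraries), 8 held exon 9 alone (19.5 TPM), 1 held both (0.208 TPM) and 84 held neither (73.8 TPM). Most of the exon 9 TPM came from 2 transcripts, at means of 12.0 and 6.19 TPM. The second started at base 59669049, inside the gene, and ended at base 59742605, past the annotated end at base 59679375. Some exon 10 transcripts had that end too. No Pkm transcript was classed as a full splice match to the annotation, and transcripts classed as using a splice site outside the catalogue held 90.7% of Pkm TPM. An end of exon 7 at base 59671729, which the annotation does not have and 122 transcripts carried, held 96.6% of the TPM of transcripts with that exon's start.

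The exon 9 share is the TPM with exon 9 over the TPM with either exon. Every one of the 45 libraries lay under 50%, from 6.82% to 20.5% in R9 (median 13.2%) and from 1.34% to 19.0% in R10 (median 6.84%), so among transcripts with either exon those with exon 10 were the majority in each library. Transcripts with neither exon held 49.0% to 66.7% of all Pkm TPM in the 4 R10 libraries of day 18 and 10.3% to 44.6% in the other 41, so the day 18 shares rest on a smaller part of Pkm. Exon 10 transcripts were under 50% of all Pkm TPM in those 4 libraries and in 1 other, the R9 OKS progenitors (48.8%). R10 stem cells had a share of 7.005% ± 2.33 (SD, n = 7) and progenitors 6.08% ± 1.69 (SD, n = 4), a difference of 0.922 points (exact permutation test, two-sided, p = 0.509). In R9 the shares were 15.0% ± 2.42 (n = 2) and 11.1% ± 3.12 (n = 4), a difference of 3.89 points (exact permutation test p = 0.267, where the smallest possible is 0.0667). In both types the groups overlapped.

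In the 5 medium pairs, in the order used above, the share was 9.33, -0.37, 4.96, -1.57 and 7.30 points higher in 2i-LIF, with a mean of 3.93 points (exact sign-flip permutation test p = 0.25; 5 pairs cannot reach 0.05). It was higher in 3 of 5 pairs. In the R9 time course the share was 17.5%, 12.99%, 18.01%, 15.7%, 18.3% and 11.1% in OKS cells at days 2, 4, 6, 10, 14 and 20 and 12.3%, 13.2%, 10.96%, 11.6%, 9.23% and 13.2% in OKMS cells. OKS cells were thus higher at 4 of 6 days, which was not tested. The library type moved with the share, which was higher in R9 than in R10 in 11 of 12 conditions with both types, the exception being OKS day 6. Of 6 listed proteins known to act on Pkm exon choice, Ptbp1 was higher in R10 stem cells, Ptbp2, Hnrnpa1 and Srsf3 were lower in serum medium, and Hnrnpa1 and Srsf3 were higher in OKMS than in OKS cells. In these directions 22.4%, 11.9% and 6.94% of all genes tested were called. In the other 5 comparisons 0 of the 6 were called. The TPM table carries no depth, so no counting interval is given for these shares.

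**Figure D5:**
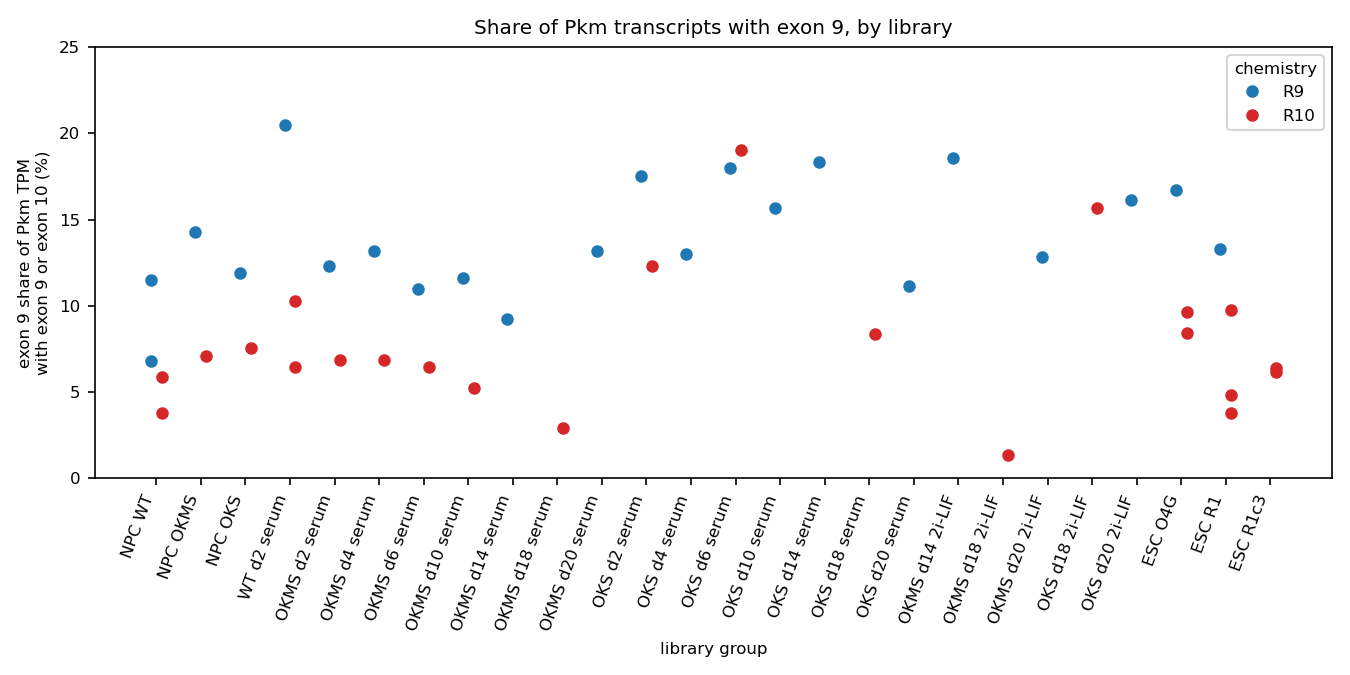
Exon 9 share (percent of Pkm TPM in transcripts with exon 9 or exon 10) by library group, 1 point a library, with R9 and R10 in separate colours. All points lie under 25%, and R9 points lie above R10 points in most groups.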

How the data were processed

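Gene values were CPM (reads of a gene scaled to a common library total) and transcript values were TPM, both deposited by the authors in tables whose names refer to IsoQuant. Per the submitters' processing notes, minimap2 2.24-r1122 and mm10 were used, and other settings are not given in the sources used here. The members and gene lists were chosen with earlier results of these data known. All CPM values were whole multiples of the worth of 1 read within 0.02 reads (100%), which gave the depth of each library, and unnamed rows held at most 0.28% of a library's reads. Another 13 columns of the gene table belonged to no sample of the series by name and were left out.

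CPM were tested as log2(CPM + 1), which understates the change of low genes, by limma 3.58.1 under R 4.3.3, whose eBayes step used a mean-variance trend. Genes with a CPM of at least 1 in as many libraries as the smaller group were tested, p-values were two-sided and Benjamini-Hochberg adjusted over all genes tested, and calls needed an adjusted p under 0.05 and a log2 difference of at least 1. The day was a block between OKMS and OKS, and the pair was a block between media. Every member was described, and genes of the other lists were named only where called; 1 listed item is not reported here. The gene fits of R10 stem cells against progenitors, of the medium pairs and of OKMS against OKS were tested on simulated data. The other fits and the Pkm shares were not.

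Each result was recomputed with a pseudocount of 0.25, without a filter, with a filter at 5 CPM, and with quantile normalization, median centring, edgeR 4.0.16, DESeq2 1.42.0 (both on recovered reads), other arms, or each library or pair left out. Rows joined with, antisense to or copied from a member were summed in, and Pkm transcripts were limited to those with both flanking exons, as alternatives chosen after seeing the data. Copies came from minimap2 2.31 alignments of annotated transcripts. Pkm exons were read from the deposited transcript annotation and their sequence from annotated transcripts on GRCm38, and exon shares were compared by exact permutation tests. The deposited transcript classification served for the splice classes of Pkm.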

Additional observations from a re-analysis of the deposited data

Results flagged for a closer look

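Ldhb in 1 of the R10 libraries of R1 clone 3 (replicate 2) was 207.981 CPM, apart from the other 6 R10 stem cell libraries at 290.05 to 367 CPM. Pdha1 in the R10 library of R1 without an n number was 122.114 CPM, apart from the others at 189 to 246 CPM. In both, the gap to the nearest library was a large share of the group's range on the log2(CPM + 1) scale (0.585 and 0.624). Such a gap was found in 2 of 99 tests on groups of 4 to 10 libraries, where chance gives about 1 in 20. The tests use the same libraries for different genes and are not independent.

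The stem cell minus progenitor difference of Slc16a3 was 2.68873 higher in R9 than in R10 on the log2 scale (limma interaction term over 18323 genes, adjusted p 0.0248). R9 and R10 differ in RNA selection, amplification and flow cell together, and these cannot be told apart.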

How the results depend on the processing

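No called member reversed its direction under the alternatives that were run. Over these alternatives, 823 values of called members stayed called and 225 did not. Counts of members called changed as follows. Wild-type serum medium against progenitor medium gave 13, a count that did not hold with any library left out or in R9. In R9 1 group held 1 library, and genes outside the members were called. With the replicate number as a block the count of 13 became 17, where the calls over all genes went from 3935 to 5603, but the 2 numbers are shared only as labels (r = 0.474 over 14669 genes between the groups' differences). The time course gave 4, and 1 with quantile normalization, 9 with median centring, 15 with edgeR (6 higher, 9 lower) and 7 with DESeq2 (1627, 2944, 4557 and 2541 of 19337 genes called, against 2067). It gave 1 without day 2 and 0 without day 20, where 1362 of 18666 and 599 of 18592 genes were called. With a library left out, which leaves 1 library for its day, fewer members and fewer genes of all tested were called. OKMS against OKS gave 8 (2563 of 14257 genes called), and 4 to 9 with a pair left out (1682 to 3232 genes). It gave 0 in the R10 pairs (0 of 15115 genes called) and 0 in days 10 to 20 (124 of 15107). The medium pairs gave 8 (1833 of 14917 genes called), 5 with DESeq2 (1240), 5 in R9 pairs (1167 of 15463) and 3 in R10 pairs (174 of 15428). With a pair left out they gave 4 to 9, where 1210 to 1907 genes were called. Reprogrammed against stem cells gave 1 (479 of 14932 genes called), 0 with edgeR (203) and 0 to 2 with a library left out (231 to 607 genes). In R10 alone the 1 call was on the higher side (1411 of 15865 genes called). Stem cells against progenitors gave 12 to 13 in R10 and 9 to 12 in R9 with a library left out. The cause was not tested.

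Median centring moved the split of higher and lower members from 3 and 10 to 4 and 8 in R10 and from 5 and 7 to 6 and 4 in R9 for stem cells, and in the medium pairs from 0 and 8 to 1 and 8, while edgeR moved the serum split from 7 and 6 to 9 and 4. Centring moved the median of all genes by over 0.1, from 0.01 to 0.21 in R10 stem cells, from -0.07 to 0.09 in R9, from 0.12 to -0.03 in serum medium, from 0.09 to -0.11 for the factors at day 2, from -0.11 to 0.05 in OKMS against OKS and from 0.63 to -0.45 in the time course. The Pkm exon 9 difference ranged from 0.154 to 1.46 points in R10, 2.18 to 5.60 in R9 and 2.58 to 5.31 in the medium pairs with a library or pair left out. Full splice matches alone could give no Pkm share, since no transcript was of that class. Values of Pgk1, Eno2, Pfkfb2, Pdp1 and Slc16a3 reached the floor, each being at 0 CPM in at least 1 library, and the part of depth was not tested.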
